A study of Mus musculus with 24 samples.

Results

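The genes of MHC class II antigen presentation were examined in liver RNA as a set of 8, chosen by symbol from the 41388 genes counted: the chain genes H2-Aa, H2-Ab1 and H2-Eb1, the peptide exchange genes H2-DMa, H2-DMb1 and H2-DMb2, the invariant chain gene Cd74 and the transactivator gene Ciita. The livers came from male mice of 4 groups, each with 5 single-mouse libraries and 1 library pooled from the mice of the group. WT mice were littermates homozygous for a floxed Lpin1 allele without Cre, and Adn-Lpin1-/- mice carried the same floxed alleles with Cre driven by the adiponectin promoter, so that lipin 1, a phosphatidic acid phosphohydrolase, was lost in adipocytes from development on. From 8 weeks of age each genotype ate a low-fat diet (LFD, 10% of kcal from fat) or a high-fat diet (HFD, 60%), and livers were taken after a 4-hour fast. The sample labels give 16 weeks of diet, whereas the methods of the study give 5 weeks. On the HFD 7 of the 8 genes were called higher in Adn-Lpin1-/- livers than in WT livers, by 2.04- to 2.82-fold, against 9.87% of all genes tested. With 1 mouse left out that had by far the highest values of its group, 5 of the 8 were called, against 5.74%. In edgeR no member was called between the genotypes on the LFD, where 14.4% of all genes were. Nor was any called between the diets in WT mice (1.1% of all genes) or Adn-Lpin1-/- mice (2.46%). Voom called 6 members higher on the HFD in Adn-Lpin1-/- mice only with the pooled libraries added, which repeat the RNA of the same mice. That fit called 8.85% of all genes higher.

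MHC class II molecules are pairs of an alpha and a beta chain that display peptides from endocytosed proteins to CD4 T cells. The invariant chain fills the groove of new pairs and guides them to endosomes, where H2-DM, itself an alpha and beta pair, helps exchange its last fragment for antigen peptide. Ciita is the coactivator that switches on these genes together through RFX, CREB and NF-Y proteins bound at their promoters. In liver, dendritic cells, B cells, macrophages including Kupffer cells, and sinusoidal endothelium are the usual carriers of class II, whereas hepatocytes carry little of it.

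Of the 8 members 6 lie on chromosome 17 of GRCm38 within 181 kb, from the start of H2-DMa at 34135182 to the end of H2-Eb1 at 34316199. Their gene models hold 5 (H2-DMa) to 19 (Ciita) exon parts and between 1184 (H2-Eb1) and 5254 (Ciita) exonic bases. The stretch upstream of the RefSeq transcript start (build GRCm38.p6) is shown for a beta and an alpha chain gene that were both called on the HFD, with the AGNAAC core of an X box, the RFX-bound element, and the ATTGG core of a Y box, the NF-Y-bound element, in capitals where they lie on the strand of the gene. Both run 5′ to 3′ on the strand of the gene, from 130 to 11 bases before the start.
H2-Eb1, chr17:34305737-34305856, plus strand: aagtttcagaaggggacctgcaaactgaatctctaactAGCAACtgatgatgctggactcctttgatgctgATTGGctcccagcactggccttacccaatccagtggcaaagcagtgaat
H2-Aa, chr17:34287834-34287953, minus strand: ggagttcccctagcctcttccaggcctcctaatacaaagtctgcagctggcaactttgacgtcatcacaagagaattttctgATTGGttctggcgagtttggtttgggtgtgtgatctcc
In H2-Eb1 the AGNAAC letters were followed after 27 bases by ATTGG, which began at position -59 from the start. H2-Aa held ATTGG at -48 and no exact AGNAAC in its window. Its stretch holds ggcaac, which differs from AGNAAC in the first letter. Only exact letters were searched, so the lack of a match does not show that a gene lacks an X box. Promoter windows, each 250 bases before to 50 bases after a start, were searched for 5 of the 8 members. H2-DMb1 also held AGNAAC before ATTGG on its own strand, with 28 bases between, while H2-DMb2 held ATTGG alone at -90. H2-DMa had 2 windows, of which one held neither motif and the other held ATTGG on the gene's strand and AGNAAC on the opposite strand. The RefSeq starts of these windows, 34122832 and 34125518, lie kilobases before the H2-DMa gene model that was counted, and that of H2-DMb2, 34145249, lies inside its gene model, which starts at 34143307, so these windows may not be the promoters that the counts relate to. H2-Oa, H2-Ob and H2-Eb2, class II genes outside the set, held the pair with 28, 25 and 27 bases between. On either strand AGNAAC was in 48.1% of all 32851 windows, ATTGG in 37.4%, and the pair with 20 to 35 bases between in 0.831%. The members without a window here were H2-Ab1, Cd74 and Ciita.

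The remaining members lie elsewhere, Ciita on chromosome 16 from 10488178 to 10527564 and Cd74 on chromosome 18 from 60803848 to 60812646. Each mouse gave 36260187 to 81072794 counts in total, and the group medians lay between 40777580 (WT LFD) and 62306028 (Adn-Lpin1-/- HFD). All 8 members passed the limit of more than 1 CPM (the count scaled to the library total) in at least 4 libraries that 13052 genes passed. Counts per mouse were lowest for H2-DMb2 (16 to 114) and Ciita (32 to 382) and highest for Cd74 (1267 to 17240). CPM values are scaled by edgeR's TMM factors, and SD and n refer to mice. The deletion is in adipocytes, so liver Lpin1 is no test of the labels, and it had log2 fold changes of 0.78 on the LFD (adjusted p = 0.314 in edgeR) and 0.27 on the HFD (adjusted p = 0.734 in edgeR). Because whole liver was sequenced, more cells of a type and more RNA per cell cannot be told apart.

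Per kilobase of exon, Cd74 had the highest level, with medians between 31.7 (WT HFD) and 57.6 CPM per kb (Adn-Lpin1-/- HFD). The chain genes H2-Eb1, H2-Ab1 and H2-Aa came next, followed by H2-DMa and H2-DMb1, then H2-DMb2, and Ciita was lowest, with medians between 0.170 and 0.320 CPM per kb. H2-Aa was below H2-Ab1 in each of the 20 mice, at 0.609 to 0.909 of its level per kb (median 0.725). H2-Eb1 and H2-Ab1 were not separated in this order, since their ratio ran from 0.977 to 1.32 (median 1.05), and neither were H2-DMa and H2-DMb1 (0.854 to 1.31, median 1.02). Cd74 stood at 2.42 to 3.69 times H2-Ab1 per kb (median 3.01), although H2-Ab1 itself ranged 8.49-fold between mice. H2-DMb2 stood at 0.124 to 0.501 of H2-DMb1. The H2-DMb genes are near-identical paralogs, so the division of reads between them is uncertain. Mice of the C57BL/6J background carry a defective H2-Ea gene and lack the I-E alpha chain, and H2-Ea-ps, as the annotation names it, had 0 or 1 count in every library and 0 in 16 of 20, while its partner H2-Eb1 had 455 to 5816.

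**Figure D1:**
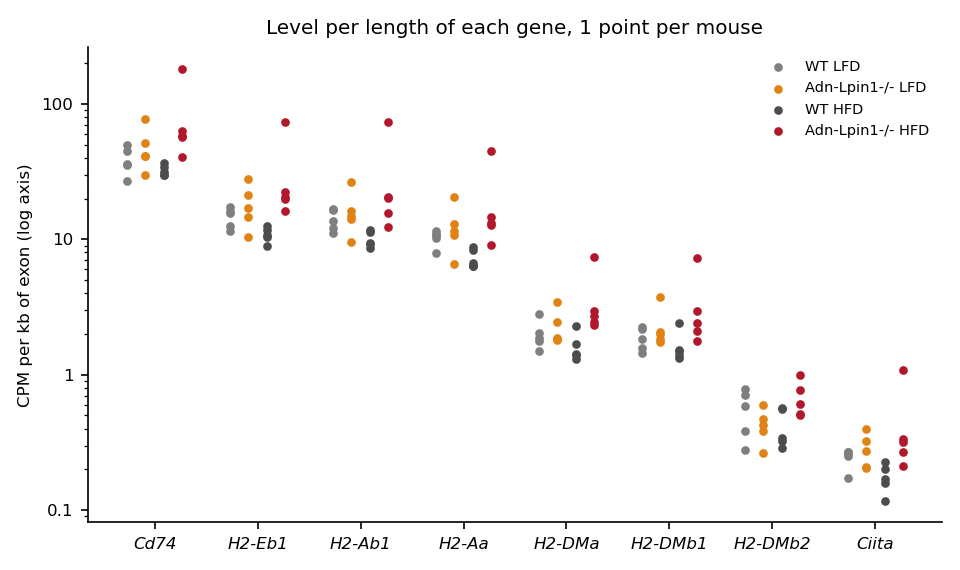
Level of each gene as TMM-scaled CPM per kilobase of exon (log axis), 1 point per mouse and 5 mice in each of the 4 groups. Cd74 lies at the top and Ciita at the bottom of the order, and the 3 chain genes lie above the H2-DM genes.

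The genotype comparison on the HFD asks how loss of lipin 1 in adipocytes goes along with liver gene expression under fat feeding. All 3 chain genes were higher in Adn-Lpin1-/- HFD. H2-Ab1, the beta chain of I-A, was at 25.6, 121, 20.3, 33.1 and 33.4 CPM in mice 1 to 5 of Adn-Lpin1-/- HFD and at 14.2, 18.6, 15.3, 15.2 and 19.3 CPM in WT HFD. No WT value reached the lowest Adn-Lpin1-/- value, and mouse 2 was 3.61 times as high as the next. The log2 fold change was 1.496 (standard error 0.37, adjusted p = 0.00928 in edgeR's quasi-likelihood test, exact permutation p = 0.00794). H2-Aa, the alpha chain of I-A, was at 23.8, 84.1, 17.01, 24.9 and 27.3 CPM in Adn-Lpin1-/- HFD and at 12.0, 15.7, 11.8, 12.5 and 16.5 CPM in WT HFD. These values did not overlap either, although the lowest Adn-Lpin1-/- mouse was only just above the highest WT mouse. Its log2 fold change was 1.37 (standard error 0.34, adjusted p = 0.00956 in edgeR, exact permutation p = 0.00794). H2-Eb1, the beta chain of I-E, was at 23.6, 86.7, 19.04, 24.3 and 26.7 CPM in Adn-Lpin1-/- HFD and at 10.6, 13.9, 12.4, 12.8 and 14.8 CPM in WT HFD. Of the 3 chain genes it left the widest gap between the lowest Adn-Lpin1-/- and the highest WT mouse, with a log2 fold change of 1.48 (standard error 0.33, adjusted p = 0.00534 in edgeR, exact permutation p = 0.00794). The value 0.00794 is the smallest two-sided p that 5 mice against 5 allow, and 32 such tests were made, 8 members in 4 comparisons.

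Cd74, which encodes the invariant chain, was at 81.2, 257, 57.4, 80.02 and 89.0 CPM in mice 1 to 5 of Adn-Lpin1-/- HFD and at 42.2, 51.4, 42.0, 44.6 and 48.3 CPM in WT HFD. The groups did not overlap, and WT HFD mice lay close together (45.7 ± 4.09 CPM, SD, n = 5). The log2 fold change was 1.30 (standard error 0.32, adjusted p = 0.00849 in edgeR, exact permutation p = 0.00794). Ciita was at 1.68, 5.70, 1.11, 1.42 and 1.78 CPM in Adn-Lpin1-/- HFD and at 0.894, 1.06, 0.830, 0.616 and 1.198 CPM in WT HFD. The transactivator was the least abundant member per kb, and mouse 3 of Adn-Lpin1-/- HFD lay inside the WT range. Its log2 fold change was 1.34 (standard error 0.36, adjusted p = 0.0142 in edgeR, exact permutation p = 0.0159). In a fit of the 2 HFD groups alone its adjusted p was 0.0530. Dexi, on the opposite strand, overlaps the Ciita gene model and had 864 to 2425 counts, and as the libraries do not mark strand, reads in the shared stretch cannot be assigned to either gene. Dexi had a log2 fold change of 0.18 on the HFD (adjusted p = 0.233 in edgeR).

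Of the genes for H2-DM, H2-DMa was at 4.83, 12.2, 3.82, 4.06 and 4.46 CPM in Adn-Lpin1-/- HFD and at 2.28, 3.75, 2.14, 2.77 and 2.33 CPM in WT HFD. The groups did not overlap, by a narrow margin (log2 fold change 1.14, standard error 0.29, adjusted p = 0.0113 in edgeR, exact permutation p = 0.00794). H2-DMb1 was at 4.42, 10.9, 2.65, 3.59 and 3.12 CPM in Adn-Lpin1-/- HFD and at 1.99, 3.57, 2.25, 2.23 and 2.07 CPM in WT HFD. Mouse 2 of WT HFD lay within the Adn-Lpin1-/- values, and the gene was the last of the 7 called (log2 fold change 1.02, standard error 0.32, adjusted p = 0.0325 in edgeR, exact permutation p = 0.0238). It was lost in 4 of 11 other settings, among them GC correction (adjusted p = 0.0510) and voom with quality weights (adjusted p = 0.0505), and without any one of mice 1, 3, 4 and 5 of WT HFD (adjusted p = 0.0613 to 0.0713 in edgeR). H2-DMb2 was at 1.31, 1.70, 0.868, 0.880 and 1.04 CPM in Adn-Lpin1-/- HFD and at 0.492, 0.582, 0.968, 0.558 and 0.959 CPM in WT HFD. It was not called (log2 fold change 0.70, standard error 0.29, adjusted p = 0.1002 in edgeR, exact permutation p = 0.0635), and mouse 2 stood out less in it than in any other member, at 1.77 times the median of the other 4 mice. With the pools as sixth libraries H2-DMb2 was called too (adjusted p = 0.0346 in edgeR).

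In all, 7 of 8 members were called higher in Adn-Lpin1-/- HFD, where 9.87% of the 13052 genes tested were. The median log2 fold change was 1.32 over the members and 0.00 over all genes. The 2 HFD groups did not overlap, with WT the lower, in 5 of 8 members (H2-Aa, H2-Ab1, H2-Eb1, H2-DMa and Cd74), as in 5.78% of all genes tested.

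**Figure D2:**
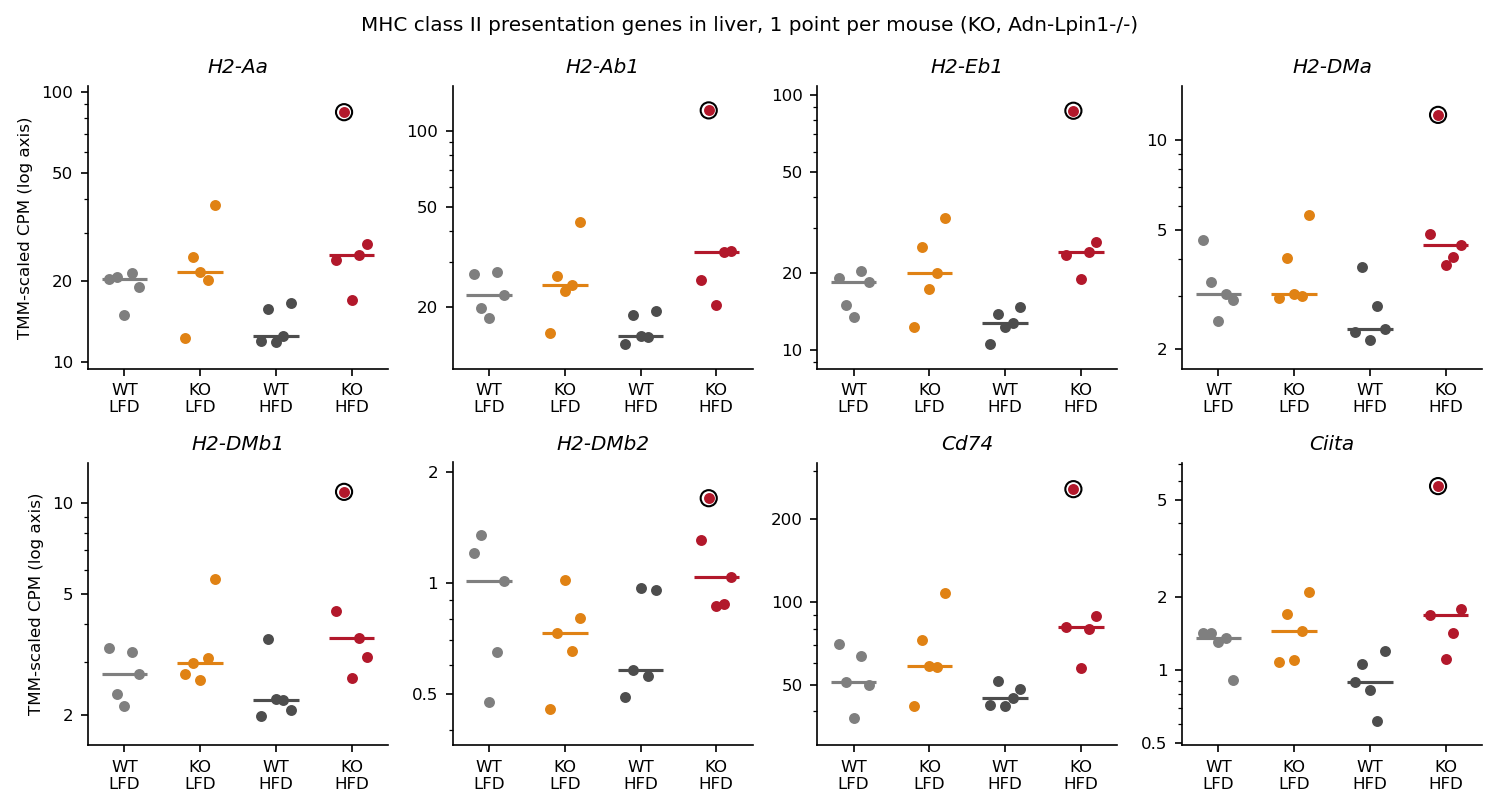
TMM-scaled CPM (log axis) of each member in each mouse, with KO standing for Adn-Lpin1-/-, 5 points and the median as a line in each group, and a ring around mouse 2 of Adn-Lpin1-/- HFD. Between the HFD groups, 5 of the 8 genes do not overlap, and the ringed mouse is the highest of all 20 in each panel.

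Mouse 2 of Adn-Lpin1-/- HFD was the highest of its group in all 8 members, at 2.86 times (H2-DMa) to 4.12 times (H2-Ab1) the median of the other 4 mice in the 7 called members. Its total count was 62306028, the median of its group. With this mouse left out, values of log2 fold change on the HFD were between 0.51 (H2-DMb1) and 0.86 (H2-Eb1), with a median of 0.73 over the members and 0.00 over all genes. H2-Eb1 (adjusted p = 0.0106), Cd74 (0.0273), H2-Ab1 (0.0284), H2-Aa (0.0324) and H2-DMa (0.0416) were then called higher in edgeR's quasi-likelihood test, 5 of 8 members against 5.74% of genes. Ciita (log2 fold change 0.70, adjusted p = 0.0555) and H2-DMb1 (0.51, adjusted p = 0.163) were no longer called. The other 4 mice were at 76.9 ± 13.6 CPM (SD, n = 4) for Cd74 and 28.1 ± 6.33 CPM (n = 4) for H2-Ab1. The pooled library of the group, which holds RNA of the same mice, was at 0.874 (H2-DMb2) to 1.245 (Ciita) times the mean of the 5 mice in unscaled CPM.

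**Figure D3:**
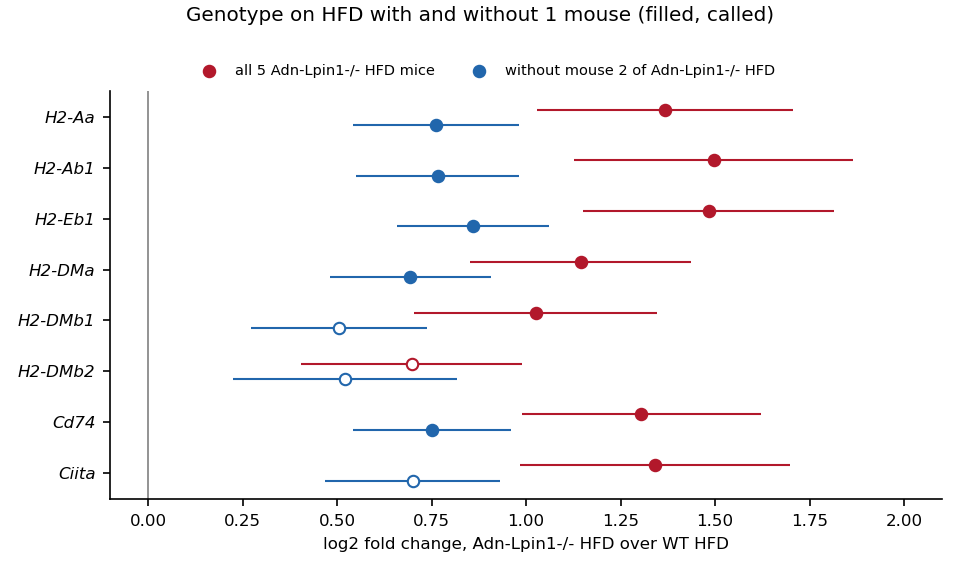
Log2 fold change of Adn-Lpin1-/- HFD over WT HFD with its standard error, for all 5 Adn-Lpin1-/- HFD mice (red) and without mouse 2 (blue), with filled points where edgeR's adjusted p was at or below 0.05. All values lie above 0, and filled points number 7 with the mouse and 5 without it.

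On the LFD none of the 8 members was called between the genotypes, where 14.4% of all genes were (edgeR). DESeq2, voom and voom with the pools also called 0 members. At an unadjusted p under 0.05 there were 0 members and 28.9% of all genes (edgeR). Cd74 was at 41.9, 72.9, 58.3, 58.0 and 108 CPM in mice 1 to 5 of Adn-Lpin1-/- LFD and at 70.4, 51.2, 37.7, 63.5 and 49.8 CPM in WT LFD. The groups overlapped, with the lowest Adn-Lpin1-/- mouse below 4 of the WT mice (log2 fold change 0.32, standard error 0.31, adjusted p = 0.537 in edgeR, exact permutation p = 0.357). H2-Ab1 was at 15.8, 26.5, 23.1, 24.5 and 43.4 CPM in Adn-Lpin1-/- LFD and at 27.1, 19.8, 18.1, 27.5 and 22.3 CPM in WT LFD (log2 fold change 0.22, adjusted p = 0.735 in edgeR). Mouse 5 of Adn-Lpin1-/- LFD was the highest of its group in 7 of 8 members, all but H2-DMb2. Over the members the log2 fold changes ran from -0.36 (H2-DMb2) to 0.32 (H2-Eb1), with a median of 0.25 against 0.01 over all genes. On this diet Ciita was at 1.28 ± 0.21 CPM (SD, n = 5) in WT and 1.48 ± 0.43 CPM in Adn-Lpin1-/- livers, and H2-DMb2 at 0.940 ± 0.369 and 0.733 ± 0.207 CPM.

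Between the diets in WT mice, 0 of 8 members were called, as against 1.1% of all genes (edgeR), and 0 by DESeq2 or voom. At an unadjusted p under 0.05 there were 0 members and 15.8% of all genes (edgeR). The 8 log2 fold changes were all negative, from -0.49 (H2-Aa) to -0.19 (H2-DMb1), with a median of -0.42. Single-gene exact permutation tests do not take the spread from the other groups, and their p was not adjusted. In these tests p was 0.0238 for H2-Aa and H2-Ab1, 0.0317 for H2-Eb1 and 0.0397 for Ciita. For the other members it was 0.1905 (H2-DMa), 0.230 (Cd74), 0.278 (H2-DMb2) and 0.333 (H2-DMb1). H2-Aa was at 20.3, 20.6, 14.9, 21.4 and 19.03 CPM in WT LFD. Only mouse 3 of WT LFD lay within the range of the 5 WT HFD mice given above.

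In Adn-Lpin1-/- mice the 8 log2 fold changes of HFD over LFD were all positive, from 0.54 (H2-DMb1) to 0.80 (H2-Ab1). Their median was 0.65. In edgeR 0 members were called against 2.46% of genes, and DESeq2 and voom without the pools also called 0. At an unadjusted p under 0.05 there were 5 members and 16.1% of all genes (edgeR). Exact permutation p was 0.032 for H2-DMb2 and between 0.135 (H2-DMa) and 0.4365 (H2-Aa) for the other members. The groups overlapped in every member. Voom with quality weights was the test of the study, which gives n = 6 for this sequencing and does not say whether the pool is counted. With the pools as sixth libraries, it called 6 members higher on the HFD (all but H2-DMb2 and Ciita), where it called 8.85% of genes higher. Once mouse 2 was left out, H2-Aa had a log2 fold change of -0.01 in edgeR and H2-Ab1 of 0.07. The genotype comparison on the HFD and the diet comparison in Adn-Lpin1-/- mice share the Adn-Lpin1-/- HFD mice.

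The genotype effect on the HFD exceeded that on the LFD in all 8 members, from 0.72 (H2-DMb1) to 1.28 (H2-Ab1) on the log2 scale, with standard errors of 0.41 to 0.51. None was called (lowest adjusted p 0.628 in edgeR), and 0% of all genes were. At an unadjusted p under 0.05 there were 7 members and 7.19% of all genes, and voom called 0 of 8 members and DESeq2 0 of the 6 for which it gave an adjusted p. Without mouse 2 of Adn-Lpin1-/- HFD the difference fell from 0.99 to 0.43 for Cd74 and from 1.13 to 0.49 for Ciita. Its median over the 3 chain genes fell from 1.16 to 0.54. So the call on the HFD and its lack on the LFD were not shown to differ.

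**Figure D4:**
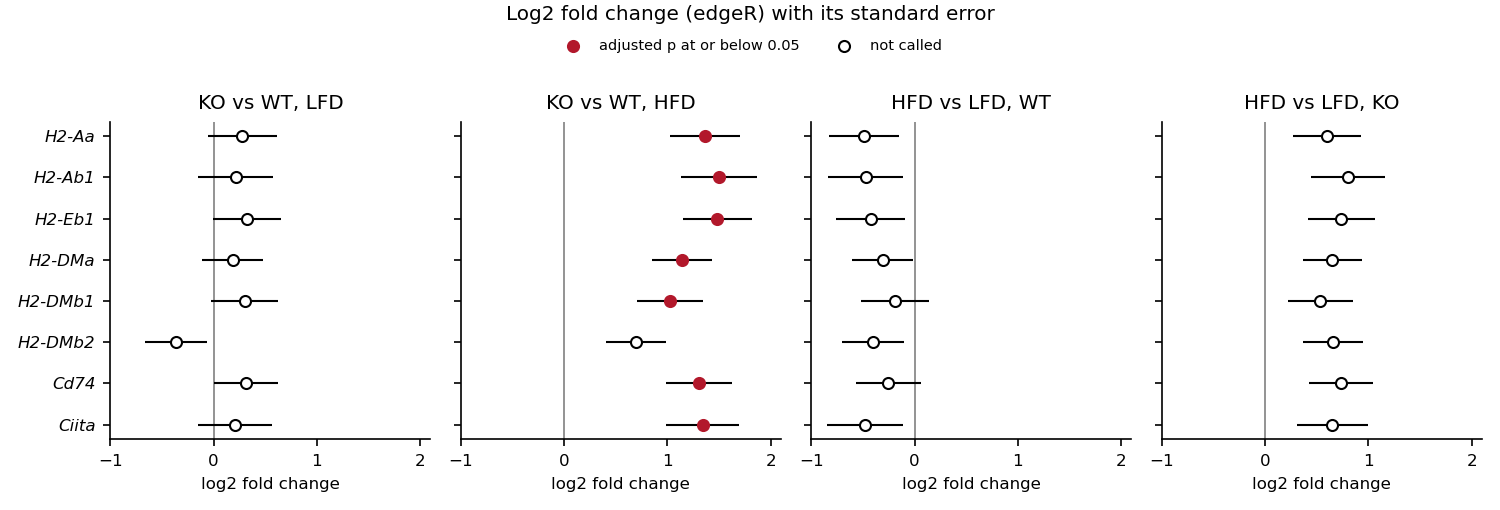
Log2 fold change of each member with its standard error in the 4 comparisons, with KO standing for Adn-Lpin1-/- and filled points where edgeR's adjusted p was at or below 0.05. The 7 filled points are all in the comparison of the genotypes on the HFD.

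Genes that act upstream of the members were mostly not called. Over all 13052 genes tested in edgeR, 2434 were called between the genotypes on the HFD, 1288 of them higher. On the LFD 1877 were called, 818 of them higher. Without mouse 2 of Adn-Lpin1-/- HFD, 746 of 12990 genes were called higher on the HFD. The lists here and below were not tested as sets. Of the 7 genes for the RFX, NF-Y and CREB proteins of class II promoters, 0 were called higher and 1 lower on the HFD, with a median log2 fold change of 0.01. The lower gene was Creb1, which fell by 0.36 on the log2 scale on the HFD (adjusted p = 0.0216 in edgeR, and 0.0652 without mouse 2 of Adn-Lpin1-/- HFD) and by 0.44 on the LFD (adjusted p = 0.00886 in edgeR). Rfx5, the large RFX subunit, was at 7.53 CPM in WT HFD and 7.59 CPM in Adn-Lpin1-/- HFD. Of 8 genes from interferon gamma to Ciita, 6 were tested and 0 called on the HFD (edgeR), with a log2 fold change of 0.36 for Irf1 (adjusted p = 0.156). Ifng itself had 0 counts in 14 of 20 mice and 8 at most.

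Among 9 genes of endosomal processing, 2 rose and 2 fell on the HFD (edgeR, median log2 fold change 0.07). Ctss, the protease that trims the invariant chain in antigen-presenting cells, rose by 0.87 (standard error 0.25, adjusted p = 0.0218), and Lgmn, the asparaginyl endopeptidase, by 0.59 (standard error 0.16, adjusted p = 0.0166). Ctsl, cathepsin L, fell by 0.34 (adjusted p = 0.0441), and Sppl2a, which clears the last membrane stub of the invariant chain, fell by 0.31 (adjusted p = 0.0113) and on the LFD by 0.35 (adjusted p = 0.00616). Without mouse 2 of Adn-Lpin1-/- HFD, Sppl2a alone of the 9 was called (adjusted p = 0.0384). Cd83, which slows the turnover of surface class II, rose by 1.07 (adjusted p = 0.0140, and 0.0462 without that mouse), and March1, the ubiquitin ligase that promotes it, had a log2 fold change of 0.65 (adjusted p = 0.163). A list of 6 genes for costimulation also held Cd274, which encodes PD-L1, a ligand that restrains T cells. Of the 6, 4 were tested and 2 rose. These were Icosl, the ICOS ligand (log2 fold change 1.255, adjusted p = 0.00195), and Cd274 (1.22, adjusted p = 0.0278, and 0.145 without that mouse). Cd86 (0.59, adjusted p = 0.0960) and Icam1 (0.62, adjusted p = 0.0693) were not called in edgeR. Cd80 and Cd40 were under the limit on low counts.

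Of 11 genes of class I presentation, which shows peptides from the cytosol to CD8 T cells, 3 rose on the HFD and 1 fell (edgeR), with a median log2 fold change of 0.15. Nlrc5, the class I counterpart of Ciita, rose by 0.50 (standard error 0.13, adjusted p = 0.0141), H2-D1, a class I heavy chain, by 0.35 (adjusted p = 0.0364), and Psmb9, an immunoproteasome subunit, by 0.59 (adjusted p = 0.0366). Erap1, an aminopeptidase, fell by 0.36 (adjusted p = 0.00742) and on the LFD by 0.39 (adjusted p = 0.00569 in edgeR). Without mouse 2 of Adn-Lpin1-/- HFD, 1 of the 11 was called higher, Nlrc5, and 1 lower, Erap1. Between the first and last member on chromosome 17 lay 9 other genes, Psmb9, Tap1, Psmb8, Gm20496, Tap2, Gm15821, H2-Ob, Gm20513 and 1 gene without a symbol. Of these 9 genes 5 were tested, and Psmb9 alone was called on the HFD. H2-Ob, the beta chain of the H2-DM inhibitor H2-O, had 6 to 84 counts and a log2 fold change of 0.68 (standard error 0.34, adjusted p = 0.164). H2-Oa, its alpha chain (1 to 31 counts), and H2-Eb2 (0 to 12 counts) were under the limit on low counts.

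Markers of cells that carry class II were also higher in Adn-Lpin1-/- HFD in part. Of 9 dendritic cell markers 3 passed the limit on low counts and 1 rose on the HFD (Itgax, CD11c, log2 fold change 1.08, adjusted p = 0.0262 in edgeR, and 0.103 without mouse 2). The summed level of the 9 was 9.62 to 11.7 CPM in WT HFD and 11.8 to 17.6 CPM in Adn-Lpin1-/- HFD, with no overlap. Its largest part was Zbtb46, with means of 5.26 of 10.4 CPM in WT HFD and 6.35 of 14.5 CPM in Adn-Lpin1-/- HFD. Neither Zbtb46 (0.27, adjusted p = 0.140) nor Clec9a (0.49, adjusted p = 0.0806) was called in edgeR, so the sum rests largely on genes that were not called. Of 5 Kupffer cell markers 4 rose, Timd4 (0.99, adjusted p = 0.0128), Clec4f (0.63, adjusted p = 0.0165), Vsig4 (0.75, adjusted p = 0.0356) and Cd5l (0.76, adjusted p = 0.0364). Their sum was 102 to 133 CPM in WT HFD and 135 to 297 CPM in Adn-Lpin1-/- HFD, again without overlap, and 0 of the 5 were called without mouse 2. Of 7 monocyte and macrophage markers 3 rose, Cd68 (0.82, adjusted p = 0.00790), Csf1r (0.97, adjusted p = 0.0109) and Lyz2 (0.85, adjusted p = 0.0140), and the sum was 56.7 to 69.5 CPM in WT HFD and 73.6 to 189 CPM in Adn-Lpin1-/- HFD. Without mouse 2 of Adn-Lpin1-/- HFD, 2 of these 7 were called on the HFD, Cd68 and Csf1r. On the LFD, where no member was called, 1 of the 7 was called higher, Cx3cr1 (log2 fold change 1.425, adjusted p = 0.0467 in edgeR). Cd68 (0.59, adjusted p = 0.0539) and Ccr2 (0.81, adjusted p = 0.0741) were not called on that diet, and 0 of the 5 Kupffer cell markers were.

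Sinusoidal endothelial markers rose on both diets, 4 of 6 on the HFD (Stab1, Stab2, Pecam1 and Lyve1, with log2 fold changes of 0.46 to 0.90) and 3 of 6 on the LFD (Stab1, Pecam1 and Lyve1, 0.59 to 1.00), where no member was called. Their sum on the HFD was 109 to 157 CPM in WT and 183 to 196 CPM in Adn-Lpin1-/-, and mouse 2 was not the highest. Stab1 and Stab2 were called without mouse 2 of Adn-Lpin1-/- HFD. Of 7 B cell markers 3 were tested and 1 rose (Cd22, 1.00, adjusted p = 0.0329 in edgeR, and 0.112 without mouse 2), the defining genes Cd79a and Cd79b had log2 fold changes of 0.22 and 0.48, and the sums overlapped (3.25 to 5.59 CPM in WT HFD, 4.33 to 8.63 CPM in Adn-Lpin1-/- HFD). Of 7 T cell markers 2 were tested and 0 called, with sums of 5.06 to 6.66 and 4.35 to 8.65 CPM. None of these markers was at 0 throughout. Hepatocyte markers, which check the tissue, summed to 98870 to 123300 CPM in WT HFD and 81320 to 106700 CPM in Adn-Lpin1-/- HFD, and 4 of 5 fell (Alb, Apoa1, Serpina1a and Cyp2e1, of which Apoa1 and Cyp2e1 did without mouse 2). Adipocyte markers other than Cfd were near 0, with mean levels of at most 0.908 CPM (Adipoq in WT LFD), and Cfd rose on both diets (log2 fold change 3.81 on the HFD, adjusted p = 0.0150 in edgeR). Mouse 2 of Adn-Lpin1-/- HFD had the highest sum of its group for the dendritic, B, T, Kupffer, macrophage and adipocyte lists. The part of any of these cells in the result was not tested.

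**Figure D5:**
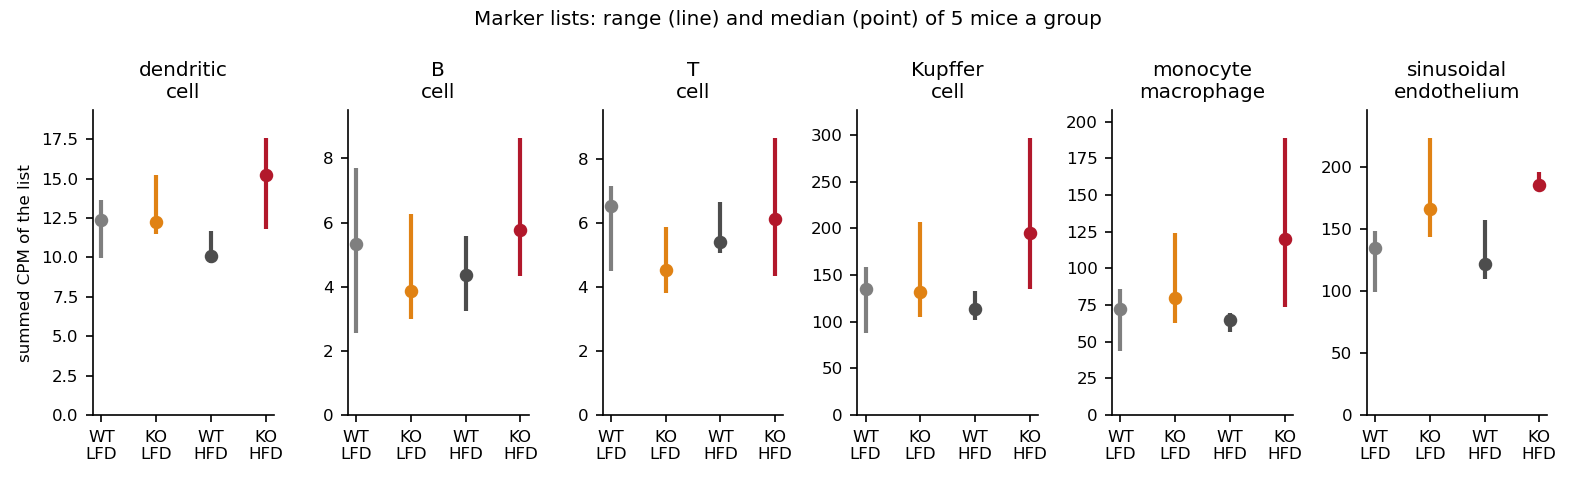
Summed TMM-scaled CPM of each cell marker list, as the range (line) and median (point) of the 5 mice of each group, with KO standing for Adn-Lpin1-/-. The dendritic cell, Kupffer cell, macrophage and endothelial sums of WT HFD and Adn-Lpin1-/- HFD do not overlap, and the B and T cell sums do.

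The members varied together from mouse to mouse. After subtraction of each group's mean, Pearson's r of log2 CPM between members ran from 0.363 (H2-DMb1 and H2-DMb2) to 0.979 over the 20 mice, with a median of 0.872 over the 28 pairs. Without mouse 2 of Adn-Lpin1-/- HFD the median was 0.682 and the range 0.157 to 0.941. Pairs with H2-DMb2, the member with the fewest counts, reached 0.555 at most. The 10 other genes most like the mean of the members were Myo1f (r = 0.913), Ctss (0.902), Spi1 (0.902), Fgl2 (0.895), Irf8 (0.893), Csf1r (0.882), Gbp2b (0.875), Clec7a (0.875), Fcer1g (0.873) and Cyba (0.869). Spi1 and Irf8 encode the myeloid transcription factors PU.1 and IRF8, and Fcer1g and Clec7a encode the Fc receptor gamma chain and dectin-1. All points share the same 20 libraries, and without mouse 2 the r of these 10 genes was 0.714 to 0.874. By Spearman's rho 3 of the 10 stayed among the 10 most alike genes, and without mouse 2 of Adn-Lpin1-/- HFD 4 did.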

How the data were processed

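Liver RNA of 20 single male mice and 4 pools was poly-A selected, reverse transcribed with random hexamers and sequenced. The authors aligned reads to GRCm38 with STAR 2.5.1a and counted them with featureCounts 1.4.6-p5 (submitters' processing notes). They deposited a raw count, a CPM and an RPKM for each of 41388 genes and library, and all values were computed from the deposited counts. Symbols (97.5% of genes) came from GENCODE M21.

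The 355 rRNA genes were left out, and 13052 genes above 1 CPM in 4 or more of the 20 mice entered edgeR 4.0.16 under R 4.3.3 (TMM, 4 group means in 1 fit, quasi-likelihood test, Benjamini-Hochberg adjustment, threshold 0.05). Pools repeat the same RNA and were left out. Single members were tested by two-sided exact permutation of log2(CPM + 0.1) over 252 arrangements. The tests of edgeR (with TMM or DESeq2 size factors), DESeq2 and voom were run first on simulated counts, for the genotype comparison on the HFD. The other settings and comparisons were not simulated. Alternatives were DESeq2 1.42.0 and its size factors, voom of limma 3.58.1, the pools as sixth libraries, 2 other limits on low counts, the 2 compared groups alone, a GC offset, a block for the replicate number, and leaving out single mice.

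The 8 members, the gene lists, the motifs and their spacing were chosen with earlier results of these data known. All 8 members were named, with up to 4 called genes of each list and comparison, genes at or near 0, chromosome 17 neighbours and the 10 most alike genes. Other genes named in the lists were chosen after their values were seen. Mice of a group differed by more than sampling noise (chi-square per gene 31.9 or more in all 40 pairs). The labels give numbered mice, and p-values measure the spread between them.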

Additional observations from a re-analysis of the deposited data

Results flagged for a closer look

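Of 32 sets of 5 values (8 members in 4 groups), 10 had a lowest or highest mouse whose gap to the next was over 0.71 of the whole range. About 1 in 20 sets would pass by chance if the values were independent and normally distributed. CPM was used without logs and the members varied together, so that rate need not hold here. In Adn-Lpin1-/- HFD mouse 2 was the high one in 7 members: Cd74 (257 CPM, next 89.0), H2-Ab1 (121, next 33.4), H2-Eb1 (86.7, next 26.7), H2-Aa (84.1, next 27.3), H2-DMa (12.2, next 4.83), H2-DMb1 (10.9, next 4.42) and Ciita (5.70, next 1.78). These 7 values are from 1 library and are not separate events. H2-DMb1 was also high in mouse 5 of Adn-Lpin1-/- LFD (5.61 CPM, next 3.08) and in mouse 2 of WT HFD (3.57 CPM, next 2.25). Ciita was low in mouse 5 of WT LFD (0.912 CPM, next 1.31).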

How the results depend on the processing

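On the HFD the number of members called between the genotypes was 5 to 8 over all 31 alternatives. It was 8 only with the pools as sixth libraries, which repeat the RNA of the same mice. It was 7 with the replicate number as a block and 5 without mouse 2 of Adn-Lpin1-/- HFD or with the 2 groups alone. H2-Aa, H2-Ab1, H2-Eb1, H2-DMa and Cd74 were called in each of them, with adjusted p between 5.17e-05 and 0.0416. In the other 4 comparisons the block called 0 members. Same-numbered mice shared only a number (correlations of -0.423 to 0.288). Voom with the pools called 6 members between the diets in Adn-Lpin1-/- mice, where 0 were called otherwise, and the cause was not tested. With each mouse left out, the log2 fold change on the LFD ran from -0.03 to 0.35 for H2-Ab1 and -0.01 to 0.34 for H2-DMa (-0.0297 and -0.0107 without mouse 5 of Adn-Lpin1-/- LFD), and that of H2-Aa between the diets in Adn-Lpin1-/- mice from -0.00784 to 0.85, the lowest value being without mouse 2 of the HFD group. Ciita, H2-DMb1 and H2-DMb2 had 16 to 731 counts per mouse, which limits their precision. The counts without mouse 2 in gene lists, the non-overlap counts (5 to 6 members in all settings) and the most alike genes without that mouse were chosen after seeing the data. Without centring on group means, 5 of the 10 most alike genes stayed.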
